A study of Mus musculus with 30 samples.

Results

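The 92 genes described here are named after proteins of the cytosolic ribosome, though not all of them encode one. They are the rows of the count table whose gene symbol begins with Rpl or Rps and a digit, or is Rplp0, Rplp1 or Rplp2. Symbols of pseudogenes (with -ps) and of the Rps6k kinases were left out. The table holds 55421 genes, of which 19868 had enough counts to be tested, and 91 of the 92 members were among them. The exception was Rps12l1, with no count in any library. By name and annotation, 76 members are standard ribosomal proteins: 43 of the large subunit, 30 of the small subunit and the 3 proteins of the stalk. A further 7 are classed as paralogs (second genes for a ribosomal protein, such as Rpl39l beside Rpl39) and 8 as retrocopies (genes or pseudogenes that arose from a reverse-transcribed message). Rps19bp1 encodes a protein named for its interaction with Rps19, not a part of the ribosome. Origin was not tested, so a gene classed as a paralog may also have arisen from a reverse-transcribed message. Rpsa, Fau and Rack1 also encode parts of the small subunit. Their names fall outside the rule, so they are given beside the members.

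The libraries were made from mouse E14 embryonic stem cells grown in serum with LIF and the inhibitors PD0325901 and CHIR-99021. Cells of 5 lines were taken before and 24 h after treatment, which gave 10 groups of 3 libraries. Every line expressed Tir1, a plant protein that, on addition of auxin, directs a protein fused to an auxin-inducible degron (AID) to the proteasome. The TIR1 line had Tir1 and no degron, in the PDS5AB line both PDS5A and PDS5B were fused to AID, and in the WAPL line WAPL was. All were treated with 500 µM auxin. The PDS5AB-NIPBL and WAPL-NIPBL lines carried the corresponding AID fusions, an FKBP fusion of NIPBL and a Halo tag on RAD21, and were treated with 500 µM auxin and 500 nM dTAG-13, a small molecule that directs FKBP fusions to the proteasome. PDS5A, PDS5B and WAPL are regulators of cohesin, the ring complex that folds chromatin into loops, and NIPBL is the cofactor that drives loop extrusion by cohesin. Each line is a single clone, and the labels do not say whether the 3 libraries of a group came from separate cultures, so p-values measure the spread between these libraries, which may be technical.

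A ribosome contains 1 copy of most of its proteins, and cells make these proteins in matched amounts and degrade the surplus. Ribosomal protein genes are among the most highly expressed genes of a growing cell. Their promoters mostly lack a TATA box, and their messages begin with an unbroken run of pyrimidines, the 5′ terminal oligopyrimidine tract. Through this tract the growth-regulating kinase mTOR controls their translation. MYC proteins raise transcription of ribosomal protein and ribosome assembly genes, and embryonic stem cells express both Myc and Mycn.

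The RefSeq promoter table (GRCm38.p6, starts as annotated there) had an entry for 67 of the 92 members and 56 of the 76 standard ones. In 27 of the 66 start sites of standard members (40.9%), the 30 bases from 20 before to 10 after the start held a run of 8 or more C or T on the gene's strand, against 12.6% of all 32851 start sites in the table. The windows of 6 members are shown because they cover long and short tracts as well as large and small falls after loss of PDS5A and PDS5B. Capitals mark the longest run of C and T, and sequences read 5′ to 3′ on the gene's strand.
Rpl7a (chr2:26910787-26910816, plus strand): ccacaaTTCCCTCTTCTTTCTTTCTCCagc
Rpl35 (chr2:39005122-39005151, minus strand): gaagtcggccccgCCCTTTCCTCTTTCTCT
Rpl38 (chr11:114668560-114668589, plus strand): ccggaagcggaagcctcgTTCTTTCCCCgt
Rps27 (chr3:90213639-90213668, minus strand): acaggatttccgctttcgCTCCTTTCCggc
Rps7 (chr12:28635944-28635973, minus strand): gaagagCTTCCggtttccacccacctactt
Rpl24 (chr16:55966255-55966284, plus strand): taggaagaaagCTgttgctaggaaacagac
The run was 21 bases long in Rpl7a, 17 in Rpl35, 10 in Rpl38, 9 in Rps27, 5 in Rps7 and 2 in Rpl24. In the 300 bases from 250 before to 50 after the start, CCGGAA (searched on both strands), the core recognised by ETS factors such as GABPA, was present in 48.5% of the standard members' promoters and 14.9% of all promoters. GGGCGG (both strands), the GC box, was present in 60.6% against 35.7%, and AAGATGG (both strands), the core of the YY1 motif, in 16.7% against 6.3%. CTCTTTC and CTTTCC, overlapping pyrimidine words searched on the gene's strand, were present in 22.7% against 4.0% and in 37.9% against 14.1%. TATAAA on the gene's strand was present in 7.6% against 8.3%. These are matches of letters, not measured binding sites.

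Library totals ran from 19632704 to 45539021 fragments. Degrons act on protein, so transcripts of the tagged genes do not test the depletion. Libraries numbered 1 to 21 in the labels are the untreated TIR1 and both PDS5AB groups, and those numbered 25 to 45 are all the others, treated TIR1 included. The labels do not say what the numbers stand for. The comparisons of treated with untreated cells in the 4 degron lines stay within 1 set of numbers, whereas the auxin effect in the TIR1 line and 3 of the 4 comparisons of untreated lines cross between the sets. The summed level of 10 pluripotency genes, in CPM (counts-per-million of the library, scaled with edgeR's TMM factors), ran from 7099 to 8249 over the untreated libraries. In treated libraries it ran from 6785 to 7229 in TIR1, 4841 to 5443 in PDS5AB, 5645 to 5891 in WAPL, 6275 to 6543 in the PDS5AB-NIPBL line and 6051 to 6346 in WAPL-NIPBL. By the test defined below, all 10 were called lower in PDS5AB cells, 8 in PDS5AB-NIPBL, 7 each in WAPL and WAPL-NIPBL, and 4 in TIR1 cells, where 2 were called higher; of all genes 20.2%, 8.06%, 15.8%, 3.45% and 9.59% were called lower in these 5 comparisons. The 8 endoderm genes summed to 5.8 to 27.5 CPM in untreated and 10.2 to 73.1 CPM in treated libraries. PDS5AB cells were highest both before (24.5 to 27.5 CPM) and after treatment (59.4 to 73.1 CPM). Summed levels were 4.4 to 21.9 CPM for 7 fibroblast genes, 130.6 to 248.7 CPM for 6 neural genes and 33.9 to 140.2 CPM for 6 trophoblast genes. Some of these sums moved with treatment, up or down by line. The trophoblast sum went from 83.6 to 92.3 CPM untreated to 133.5 to 140.2 CPM treated in TIR1 cells. In WAPL cells it had 83.6 to 102.5 CPM untreated and 33.9 to 38.2 CPM treated. The fibroblast sum was 13.5 to 14.1 and 4.4 to 5.4 CPM in WAPL cells, and 16.9 to 19.1 and 19.5 to 21.9 CPM in PDS5AB cells. Afp, Dcn, Lum, Col3a1, Postn, Dcx and Neurog2 were at 0 in all libraries of at least 1 group. The part of these markers in the ribosomal protein results was not tested, and in bulk samples fewer cells of a type and less RNA per cell cannot be told apart.

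Ribosomal protein genes took 5.00% to 7.18% of all counts, depending on the library. Untreated TIR1 cells had the highest mean share, 6.83% ± 0.353 (SD, n = 3), and PDS5AB cells after loss of PDS5A and PDS5B the lowest, 5.44% ± 0.395. The rows named as ribosomal pseudogenes, 291 in number, took at most 0.082%. In the untreated TIR1 libraries the share was 6.48%, 7.18% and 6.83%, and with auxin it was 5.93%, 6.23% and 6.05%. In the PDS5AB libraries it was 6.09%, 6.97% and 6.51% untreated and 5.00%, 5.76% and 5.56% treated. In neither line did the treated and untreated libraries overlap. These are shares of a library, not amounts per cell. In the WAPL line the share was 6.37%, 5.88% and 5.82% untreated and 6.45%, 5.45% and 5.48% treated, so that the first treated library lay above every untreated one. In the PDS5AB-NIPBL line it was 6.12%, 5.75% and 5.59% untreated and 5.73%, 5.85% and 5.68% treated, and in the WAPL-NIPBL line 5.99%, 6.07% and 6.03% untreated and 6.16%, 6.23% and 6.12% treated. Groups overlapped in the WAPL and PDS5AB-NIPBL lines, and in WAPL-NIPBL every treated library was above every untreated one. The difference between group means was -0.757 percentage points in TIR1, -1.08 in PDS5AB, -0.234 in WAPL, -0.0681 in the PDS5AB-NIPBL line and 0.139 in the WAPL-NIPBL line. With 1 library left out, the WAPL difference ran from -0.56 to -0.06. That in the PDS5AB-NIPBL line then ran from -0.18 to 0.08 and so changed sign. A two-sided exact permutation test gave p = 0.1 for TIR1, PDS5AB and WAPL-NIPBL, the smallest value that 3 libraries against 3 allow, 0.6 for WAPL and 0.8 for PDS5AB-NIPBL, so no difference in share could pass 0.05.

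**Figure D1:**
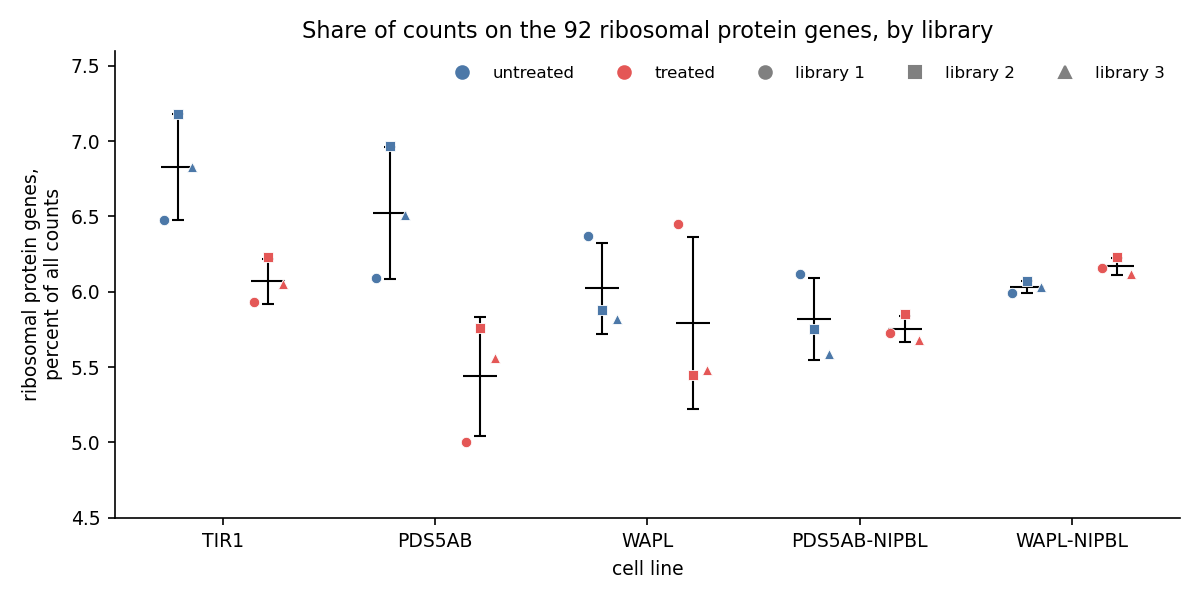
Percent of all counts that fell on the 92 ribosomal protein genes (vertical axis, not starting at 0) in each library of the 5 lines; horizontal lines and bars give the group mean and SD of 3 libraries. Treated PDS5AB libraries lie between 5.00% and 5.76%, below the 3 untreated ones, and the first treated WAPL library, at 6.45%, lies above the other 2.

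Members differed widely in level when counts were divided by exon length (RPKM, fragments scaled by exon length and library size). In untreated TIR1 cells the median of the 76 standard members was 462 RPKM. Rplp1, a stalk protein, had the highest value, 3030 ± 338 RPKM (SD, n = 3), followed by Rpl8 with 1510 ± 53.8 and Rpl4 with 1440 ± 91.4. The libraries of Rpl8 (1460 to 1570) and Rpl4 (1340 to 1510) overlapped, so the order of these neighbours is not resolved. Rpl24 and Rps10, a large and a small subunit protein, had the lowest values, 4.17 ± 0.554 and 6.91 ± 0.303 RPKM. Rpl24 shares 47.0% of its exon bases with the gene model Gm28037, Rps10 shares 28.7% with RPS10-NUDT3 and Gm15420, and under the recorded counting options a fragment that overlaps more than 1 gene is not counted. Among other members, Rpl35 shares 66.2% and Rpl23a 62.3% of their exon bases, and they had 411 and 488 RPKM. The part of sharing in these levels was not tested. Transcripts of 82 of the 92 members matched another annotated gene at 95% identity or more over at least 200 bases, and 19 members had 10 or more such copies, led by Rpl21 with 61. Fragments that align to several places are not counted either under those options, so the level of such a member is uncertain.

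After loss of PDS5A and PDS5B nearly all ribosomal protein messages fell. A gene is called here when edgeR's quasi-likelihood test gave a Benjamini-Hochberg adjusted p under 0.05 over all tested genes. Fold changes are log2 of treated over untreated, with their standard error (SE). Of the 91 tested members, 84 were called lower and none higher, beside 20.2% of all genes called lower and 25.8% called higher. At an unadjusted p under 0.05 there were 86 members, all of them with negative values. The median log2 fold change of the members was -0.43, and that of all tested genes was 0.04. All 43 large subunit genes, 29 of 30 small subunit genes and the 3 stalk genes fell. Among standard members the fold changes ranged from -0.83 to -0.19, with an SD of 0.13 beside 0.753 over all genes. Treated and untreated libraries did not overlap for 78 members (23.2% of all genes were lower in this way). DESeq2, RLE size factors and the fit with a block for replicate number changed these counts by less than 1.5 times. With scaling by total counts 64 members were called, and the share of all genes called under that scaling is not given here. That scaling moved the median of all genes to 0.19 and that of the members to -0.27, with a distance of -0.47 between them under either scaling.

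The largest falls among well-counted members were those of Rpl36a, Rpl7l1 and Rps20. Rpl36a, an X-linked gene for a large subunit protein, had 367, 447 and 394 CPM in untreated and 207, 257 and 228 CPM in treated PDS5AB libraries. No treated library reached an untreated one, and the log2 fold change was -0.80 (SE 0.0832, adjusted p = 4.55e-09, edgeR). Rps20, a small subunit protein, had 851, 1010 and 942 CPM untreated and 489, 602 and 574 CPM treated (log2 fold change -0.75, SE 0.0918, adjusted p = 8.55e-08, edgeR). Rpl38, a large subunit protein whose loss in mice causes skeletal patterning defects, had 258, 317 and 281 CPM untreated and 164, 206 and 184 CPM treated, a log2 fold change of -0.63. Here too the groups were separate. Rpl24 and the retrocopy Rpl32l had log2 fold changes of -0.83 (adjusted p = 0.00231) and -0.84 (adjusted p = 0.0272, edgeR), both from low levels. Rpl24 had 2.50, 4.40 and 5.27 CPM untreated and 1.79, 2.32 and 2.74 CPM treated, with overlap. The call of Rpl32l was lost with scaling by total counts (-0.69), without the first (-0.74) or second (-0.85) untreated library and without the second (-0.89) or the third (-0.67) treated library.

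The stalk genes encode the acidic proteins that recruit elongation factors. Rplp0 had 1160, 1360 and 1220 CPM untreated and 909, 1010 and 969 CPM treated. Its log2 fold change was -0.37 (SE 0.0769, adjusted p = 0.000215), and those of Rplp1 and Rplp2 were both -0.35 (adjusted p = 0.00138 and 0.00227, edgeR). All 3 had separate groups, and with scaling by total counts the call of Rplp1 was lost (-0.19). Rps27 was the 1 standard member not called: it had 490, 585 and 483 CPM untreated and 423, 508 and 433 CPM treated (log2 fold change -0.19, adjusted p = 0.064). The other 6 members not called were the paralogs Rpl36al (-0.50), Rpl39l (-0.02), Rpl3l (-0.23) and Rps27l (-0.06) and the retrocopies Rps27rt (-0.22) and Rps3a2 (-0.33). Rack1, Rpsa and Fau, whose names fall outside the rule, also fell: Rack1, a scaffold on the small subunit, by 0.50 on the log2 scale (adjusted p = 3.62e-07), Rpsa by 0.45 and Fau by 0.32. The call of Fau was lost with scaling by total counts (-0.17).

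The effect was also set beside the pyrimidine run at the start of each gene, as a description. The 26 standard members with a run of 8 or more had a median log2 fold change of -0.44 (range -0.63 to -0.19), and the 30 with a shorter run had -0.43 (range -0.83 to -0.21). The windows printed above were chosen to cover long and short runs and large and small falls. They cannot show whether run and fall go together. Among them, Rpl38 and Rps27 carry runs of 10 and 9 bases and had log2 fold changes of -0.63 and -0.19. Rps7, with a run of 5, had -0.61.

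**Figure D2:**
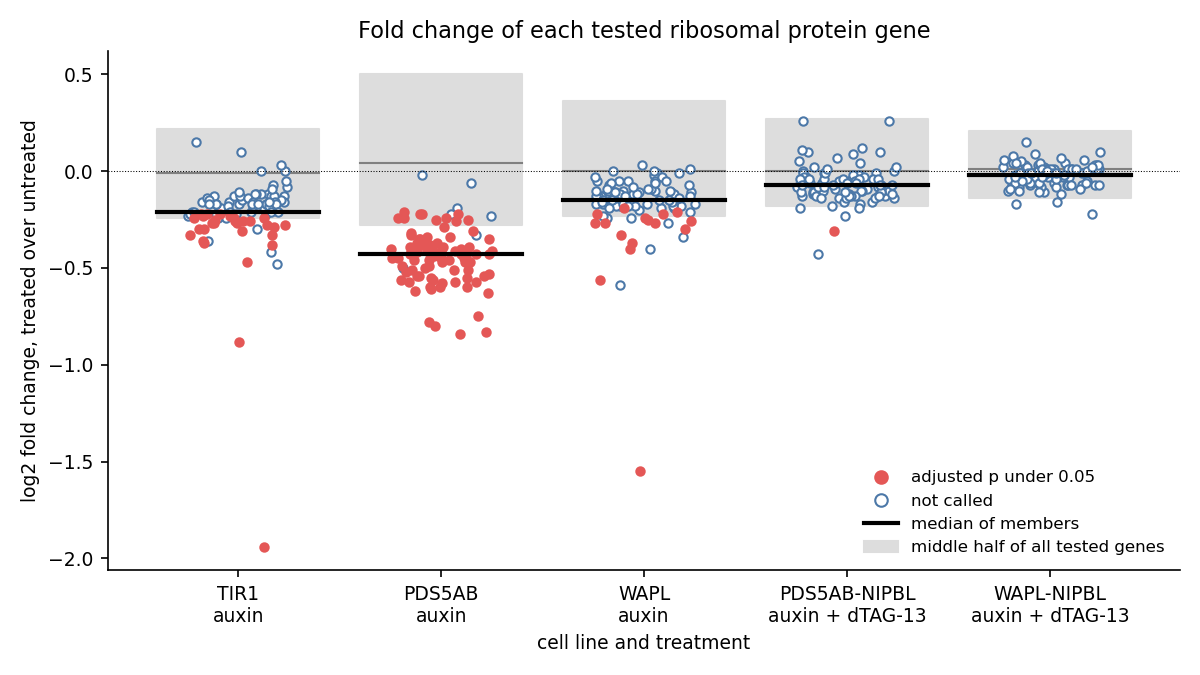
Log2 fold change (treated over untreated) of the 91 tested ribosomal protein genes in each line; red points were called, and grey bands span the quartiles of all tested genes. In the PDS5AB line 84 points are red and the members' median is -0.43; in the WAPL-NIPBL line no point is red.

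When NIPBL was depleted together with PDS5A and PDS5B, few ribosomal protein genes were called. In the PDS5AB-NIPBL line 1 of 91 members was called lower (8.06% of all genes) and none higher: the paralog Rpl7l1. The median log2 fold change was -0.07 over the members and 0.00 over all genes, and that of the 76 standard members was -0.06 (range -0.19 to 0.11). No standard member was called by edgeR, and 1 had an unadjusted p under 0.05, as did 3 of all members; DESeq2 called Rpl7l1 alone. In this line libraries of the same replicate number deviate together, and with a block for replicate number 24 members were called lower and 2, Rps27l (0.12) and Rps26 (0.12), higher, with the same median of -0.07. Under the block 15.3% of all genes were called lower and 16.8% higher, compared with 8.06% lower without it. The median without the block was -0.03 without the first untreated library and -0.02 with scaling by total counts.

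The difference between the effects in these 2 lines was tested directly. The fold change was less negative in the PDS5AB-NIPBL line for 90 of 91 members, and for 42 the difference was called (4.97% of all genes were called higher in this contrast). The median difference was 0.37 over the members and -0.02 over all genes. Of the 42, 25 encode large subunit proteins, 14 small subunit proteins and 2 stalk proteins, and the remaining one is Rpl7l1. With the block for replicate number 84 members were called higher, beside 2576 of all 19868 genes. The count fell to 14 without the second untreated PDS5AB library, to 27 without the first treated PDS5AB library, and to 26 and 25 without the second or the third untreated PDS5AB-NIPBL library; scaling by total counts gave 18. The median difference without any 1 library stayed between 0.30 and 0.42.

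Among called members the largest differences were those of Rpl36a and Rpl38. Rpl36a had 435, 381 and 394 CPM in untreated and 345, 363 and 394 CPM in treated PDS5AB-NIPBL libraries, and the difference of its effect from that in the PDS5AB line was 0.67 (SE 0.117, adjusted p = 0.00038, edgeR). Rpl38 had 248, 242 and 230 CPM untreated and 216, 251 and 234 CPM treated, with a difference of 0.59 (SE 0.114, adjusted p = 0.00105, edgeR). In both genes treated and untreated libraries of the PDS5AB-NIPBL line overlapped. The differences of Rplp0 (0.37), Rplp1 (0.42), Rpsa (0.46) and Rack1 (0.42) were called as well, and that of Rplp2 (0.27, adjusted p = 0.209, edgeR) was not. The call of Rplp0 was lost with scaling by total counts (0.26), without the second untreated (0.30) or first treated (0.34) PDS5AB library, and without the second (0.36) or the third (0.34) untreated or the first treated (0.35) PDS5AB-NIPBL library. That of Rplp1 was lost with scaling by total counts (0.31), with the 4 groups fitted alone (0.42), without the second untreated (0.32) or the third treated (0.38) PDS5AB library, and without the second (0.38) or the third (0.39) untreated PDS5AB-NIPBL library. The PDS5AB and PDS5AB-NIPBL libraries lie in different sets of library numbers, each line with its own untreated controls. The lines are separate clones that also differ in the FKBP fusion, the Halo tag on RAD21 and treatment with dTAG-13, and no group was treated with dTAG-13 alone, so these cannot be told apart from loss of NIPBL. The untreated share of counts was 6.52% in PDS5AB and 5.82% in PDS5AB-NIPBL cells on average, and the untreated libraries overlapped (6.09% to 6.97% and 5.59% to 6.12%). This difference was not tested.

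**Figure D3:**
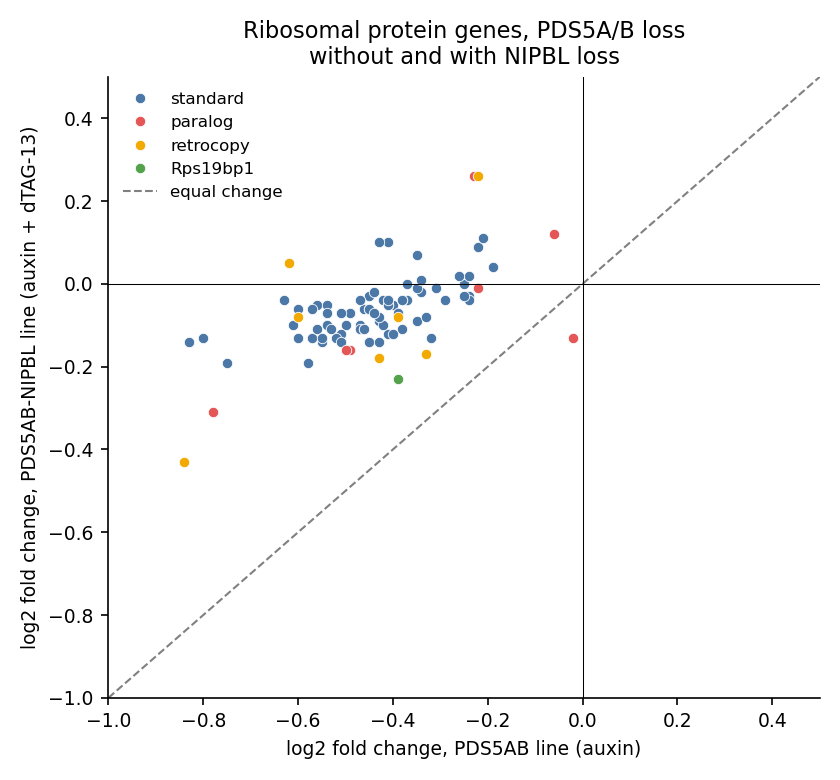
Log2 fold change of each tested ribosomal protein gene in the PDS5AB line (horizontal) against the PDS5AB-NIPBL line (vertical), coloured by class, with a dashed line of equal change. Of the 91 points, 90 lie above the line, and the standard members range from -0.83 to -0.19 on the horizontal axis and from -0.19 to 0.11 on the vertical axis.

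After loss of WAPL, fewer members were called. Of 91 members 16 were called lower, beside 15.8% of all genes, with none called higher, and 33 members had an unadjusted p under 0.05. In this fit, without a block for replicate number, the members' share of 17.6% called lower is close to the one of all genes. The median log2 fold change was -0.15 (all genes 0.00), and it was -0.16 for the large and -0.12 for the small subunit. Over all members it was -0.09 without the first untreated, -0.24 without the first treated, and -0.10 and -0.08 without the second and the third treated library. Rpl38 fell most among standard members. It had 271, 263 and 258 CPM untreated and 212, 192 and 196 CPM treated, with no overlap, and a log2 fold change of -0.40 (SE 0.0803, adjusted p = 0.000246, edgeR). Rpl29 (-0.33, adjusted p = 0.00337) and Rps19bp1 (-0.37, adjusted p = 0.00804) fell as well; in Rps19bp1 the groups overlapped. The call of Rps19bp1 was lost with the 2 groups fitted alone (-0.34), without the first untreated (-0.28) and without the second treated (-0.24) library, and that of Rpl29 without the third treated library (-0.22). Of the stalk genes, Rplp1 was called (-0.24, adjusted p = 0.0336, edgeR), a call lost with scaling by total counts (-0.16), with the 2 groups fitted alone (-0.21), and without the first (-0.19) or second (-0.24) untreated or the second (-0.14) or the third (-0.21) treated library, while Rplp0 had -0.12 and Rplp2 -0.09. WAPL libraries of the same replicate number deviate together, and the first library of each treatment had the highest ribosomal protein share. Rpsa, Fau and Rack1 were not called in this line. With a block for replicate number 66 of the 91 members were called lower, beside 23.0% of all genes (4574 of 19868). Without the first treated library 54 were called, without the first untreated library 7, and without the second or the third treated library 6; scaling by total counts gave 7, no filter on low counts 25, and the 2 groups fitted alone 5 (11.2% of all genes).

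With NIPBL depleted together with WAPL, no member was called by edgeR in the WAPL-NIPBL line (3.45% of all genes lower, 5.11% higher), and 1 had an unadjusted p under 0.05. DESeq2 called 1, Rpl7l1 (-0.22, adjusted p = 0.0395), and with the block for replicate number Rpl7l1 (-0.22) and Rps29 (0.15) were called (10.1% of all genes lower and 10.8% higher under the block). The median log2 fold change was -0.02, and standard members ranged from -0.11 to 0.15. Rpl38 had 268, 285 and 276 CPM untreated and 253, 268 and 269 CPM treated (log2 fold change -0.07, 95% interval -0.23 to 0.10). The difference from the effect in the WAPL line was called for 1 member, the paralog Rpl3l (3.03% of all genes were called higher), with a median difference of 0.12 over the members; DESeq2 called 2, Rpl3l and Rpl7l1, and the block 21 (8.75% of all genes were called higher under the block). That median was 0.06 without the first untreated, 0.23 without the first treated, and 0.07 and 0.05 without the second and the third treated WAPL library. No member was called without the first untreated, second treated or the third treated WAPL library, or without the first or the third untreated or second or the third treated WAPL-NIPBL library. Without the first treated WAPL library 2 were called.

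PDS5A and PDS5B loss differed from WAPL loss in 21 members, all more negative in the PDS5AB line (5.11% of all genes were called lower in this contrast). The median difference was -0.26 over the members and 0.00 over all genes. Rps20 differed by -0.64 (SE 0.129, adjusted p = 0.000973) and Rpl36a by -0.62 (SE 0.117, adjusted p = 0.000466, edgeR). Rps20 had 897, 881 and 774 CPM in untreated and 882, 763 and 714 CPM in treated WAPL libraries, which overlap, unlike those of the PDS5AB line. The count was 76 with the block (75 of them lower, beside 2578 of all 19868 genes) and 6 with the 4 groups fitted alone (4.08% of all genes lower). It was 40 without the second or the third treated WAPL library, 36 without the first untreated one, 12 and 10 without the second and the third untreated ones, 5 without the first treated one and 6 without the second untreated PDS5AB library.

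Ribosomal protein messages were also lower in auxin-treated cells without a degron. In the TIR1 line, with auxin, 29 of 91 members were called lower and none higher (9.59% of all genes were called lower), with a median log2 fold change of -0.21 (all genes -0.01). They included 15 of 43 large subunit genes, 9 of 30 small subunit genes, and Rplp0 and Rplp1. Rpl36, a large subunit protein, had 500, 549 and 535 CPM untreated and 377, 436 and 403 CPM treated, with a log2 fold change of -0.38 (SE 0.104, adjusted p = 0.00901, edgeR), called except without the first treated library (-0.32). Rplp0 (-0.27, adjusted p = 0.0136) and Rplp1 (-0.29, adjusted p = 0.016, edgeR) fell, whereas Rplp2 was not called. It had 769, 748 and 765 CPM untreated and 785, 864 and 805 CPM treated (log2 fold change 0.10, adjusted p = 0.467), with every treated library above every untreated one. Rack1 (-0.28), Fau (-0.27) and Rpsa (-0.25) fell. Without the second untreated library the calls of Rplp0 (-0.21), Rplp1 (-0.20), Fau (-0.19) and Rpsa (-0.20) were lost, and without the first treated library they had -0.22, -0.26, -0.23 and -0.22 and were lost as well. Without the third treated library Rplp1 (-0.29), Fau (-0.26) and Rpsa (-0.25) lost their calls. Untreated and treated TIR1 libraries belong to different sets of library numbers, so auxin and the set cannot be told apart. In the higher-numbered set the untreated WAPL, PDS5AB-NIPBL and WAPL-NIPBL libraries had shares of 5.59% to 6.37%, a range that includes all 3 auxin-treated TIR1 libraries. The count was 4 without the second untreated TIR1 library, 7 without the first treated and 13 without the third treated one, and 51 with the 2 groups fitted alone, a fit in which 13.7% of all genes were called lower.

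Set against the auxin effect, 20 members fell further in the PDS5AB line (12.4% of all genes were called lower), with a median difference of -0.24 over the members and 0.04 over all genes. Rpl36a differed by -0.63 (SE 0.117, adjusted p = 0.000173) and Rpl7l1 by -0.60 (SE 0.107, adjusted p = 9.64e-05, edgeR), and Rplp2 by -0.46 (adjusted p = 0.00946). Rplp0 (-0.10) and Rplp1 (-0.06) did not pass the test. With the block for replicate number 60 were lower and 3, Rps27rt (0.66), Rpl32l (1.08) and Rpl39l (0.45), higher, beside 4009 and 3974 of all 19868 genes. The block was fitted in both lines, although TIR1 libraries of the same replicate number did not deviate together. The count was 45 with no filter on low counts, of which 2 were higher, 10 with scaling by total counts, of which 2 were higher, 32 without the first and 13 without the second untreated PDS5AB library. The WAPL effect differed from the auxin effect in 4 members. Rpl3l (-1.13, adjusted p = 0.0489) and Rpl7l1 (-0.39, adjusted p = 0.00874, edgeR) were lower, and the retrocopy Rpl32l (1.88) and Rps21 (0.33, adjusted p = 0.0445, edgeR) were higher, beside 10.9% of all genes lower and 9.86% higher. With scaling by total counts 7 were higher and 1 was lower, and with no filter on low counts 5 were higher and 2 lower. The main count ranged from 2 to 7 when single libraries were left out: 2 without the second untreated, the first treated or the third treated TIR1 library or the second untreated WAPL library, and 7 without the first untreated or the second treated WAPL library. The call of Rpl3l was lost with scaling by total counts (-1.06), with no filter (-1.14), with DESeq2 (-1.13) and without each library in turn except the third untreated WAPL library. That of Rps21 was lost with the 4 groups fitted alone (0.34), without the second (0.28) or the third (0.30) untreated or the first (0.27) or the third (0.34) treated TIR1 library, and without the second (0.31) or the third (0.29) untreated or the first treated (0.21) WAPL library. Both differences carry the crossing of library sets that the TIR1 line has.

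Before treatment, many ribosomal protein genes were lower in the WAPL, PDS5AB-NIPBL and WAPL-NIPBL lines than in TIR1 cells. In untreated PDS5AB cells 14 of 91 members were called lower, a share of 15.4% that is close to the 16.5% of all genes. Called lower were 32 members in WAPL (7.39% of all genes), 56 in PDS5AB-NIPBL (17.8%), and 41 in the WAPL-NIPBL line (14.6%). In each of the last 2 lines 1 member was called higher, beside 16.5% and 13.4% of all genes. The medians were -0.13 in PDS5AB, -0.19 in WAPL, -0.24 for the PDS5AB-NIPBL and -0.21 for the WAPL-NIPBL line, and the comparisons share the untreated TIR1 libraries. The PDS5AB median was -0.08 without the second untreated TIR1 or the first PDS5AB library. The last 3 cross between the sets of library numbers, and line and set cannot be told apart there. Of 30 small subunit genes, 16 were called lower in the WAPL line, 23 in the PDS5AB-NIPBL line and 21 in the WAPL-NIPBL line. Of 43 large subunit genes the counts were 10, 26 and 12. Rps21, a small subunit protein, had 373, 431 and 420 CPM in untreated TIR1 cells, 299, 272 and 267 CPM in WAPL cells and 306, 273 and 270 CPM in PDS5AB-NIPBL cells. Its log2 difference was -0.55 in the WAPL line (adjusted p = 2.54e-05) and -0.53 in the PDS5AB-NIPBL line (adjusted p = 1.03e-05, edgeR), with no overlap in either. Rps10 was lower in PDS5AB-NIPBL cells (-0.64, adjusted p = 0.00671, edgeR), a call lost without the second of their libraries (-0.46). The stalk genes Rplp0 and Rplp1 were called lower in WAPL (-0.28 and -0.25), PDS5AB-NIPBL (-0.20 and -0.46) and WAPL-NIPBL cells (-0.24 and -0.26). Without the second untreated TIR1 library 5 of these 6 calls were lost, the exception being Rplp1 in PDS5AB-NIPBL cells. Outside the rule, Fau was lower in WAPL (-0.26), PDS5AB-NIPBL (-0.41) and WAPL-NIPBL cells (-0.36), and Rack1 in WAPL (-0.21) and PDS5AB-NIPBL cells (-0.23). The calls of Fau in WAPL and of Rack1 in both lines were lost without the second untreated TIR1 library (-0.18, -0.18 and -0.19). Leaving out single libraries of the degron lines also ended several of these calls. In WAPL cells this held without the second or the third WAPL library for Rplp0 (-0.27 and -0.23), Rplp1 (-0.23 and -0.22), Fau (-0.23 and -0.22) and Rack1 (-0.17 and -0.19), and for Rplp1 also without the first (-0.28). In PDS5AB-NIPBL cells it held without the second or the third library of that line for Rplp0 (-0.18 and -0.16) and Rack1 (-0.18 and -0.19). In WAPL-NIPBL cells it held without the third library for Rplp0 (-0.21) and without any 1 of the 3 for Rplp1 (-0.26 to -0.25). Without the third untreated TIR1 library Rplp0 in PDS5AB-NIPBL (-0.21) and Rack1 in WAPL cells (-0.23) were not called. With the 2 groups fitted alone the calls of Rplp1 (-0.25) and Rack1 (-0.21) in WAPL and of Rplp0 in PDS5AB-NIPBL cells (-0.19) were lost, as were that of Rplp1 in WAPL cells with RLE size factors (-0.25) and that of Rplp0 in PDS5AB-NIPBL cells with no filter on low counts (-0.18). With a block for replicate number added to the fit of the 2 groups, Rplp1 (-0.25) and Rack1 (-0.21) in WAPL cells were not called. Nor were Rplp0 (-0.19) and Rack1 (-0.22) in PDS5AB-NIPBL cells. In these comparisons libraries of the same replicate number did not deviate together.

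A pair of large subunit genes was higher in 1 line each. Rpl13a had 136 ± 10.4 CPM (SD, n = 3) in TIR1 and 175 ± 14.6 CPM in PDS5AB-NIPBL cells, with no overlap, a log2 difference of 0.36 (SE 0.0772, adjusted p = 0.000512, edgeR). Of its exon bases, 35.4% are shared with other gene models. Rpl34 had 196, 241 and 219 CPM in TIR1 and 256, 266 and 274 CPM in WAPL-NIPBL cells, a difference of 0.28 (SE 0.0818, adjusted p = 0.0106, edgeR). In the other untreated degron lines Rpl34 stood at or below its TIR1 level, with 159, 158 and 155 CPM in PDS5AB-NIPBL cells. Treated WAPL-NIPBL libraries had 257, 249 and 259 CPM of Rpl34. Without the second untreated TIR1 library the counts of members called in either direction were 7 for PDS5AB, 6 for WAPL, 33 for PDS5AB-NIPBL and 16 for WAPL-NIPBL. For PDS5AB they were 25 without the first untreated TIR1 library and 8, 24 and 9 without the first, second and the third PDS5AB library. For WAPL they were 9 and 10 without its second and the third library, for PDS5AB-NIPBL 36 without its second or its last, and for WAPL-NIPBL 27 without its first and 25 without its second or the third.

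Among the paralogs, Rpl10l was lower than in TIR1 cells in 3 and Rpl39l in all 4 untreated degron lines, and all of these comparisons except that of PDS5AB cells cross the sets of library numbers. Both are best known from the male germ line, where they stand in for their X-linked parents Rpl10 and Rpl39. Rpl10l had 205, 242 and 218 CPM in untreated TIR1 cells and 88.0, 97.8 and 91.3 CPM in untreated PDS5AB cells, a log2 difference of -1.26 (SE 0.0886, adjusted p = 1.76e-12, edgeR). It was also lower in WAPL-NIPBL (-0.59) and PDS5AB-NIPBL cells (-0.42), and in WAPL cells the difference was -0.25 (adjusted p = 0.0541). After treatment it fell in the PDS5AB line (log2 fold change -0.22, adjusted p = 0.0393), a call lost with scaling by total counts (-0.07), without the second (-0.18) or the third (-0.24) untreated and without the second (-0.19) or the third (-0.23) treated library. It had log2 fold changes of 0.00 with WAPL loss, -0.01 in PDS5AB-NIPBL and 0.01 in WAPL-NIPBL libraries. Rpl39l had 145, 167 and 144 CPM in untreated TIR1 cells and 77.5, 87.6 and 74.6 CPM in untreated PDS5AB cells (log2 difference -0.93, adjusted p = 8.06e-07). It was lower in all 4 untreated degron lines, with -0.54 in WAPL, -0.66 in the PDS5AB-NIPBL line and -0.99 in WAPL-NIPBL, and fell with auxin in the TIR1 line (-0.47, adjusted p = 0.00799, edgeR), a call lost without the second untreated library (-0.40). It was not called in any depletion: the log2 fold changes in the 4 degron lines lay between -0.13 and -0.02, with SEs from 0.126 to 0.128.

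Rpl7l1, whose product acts in assembly of the large subunit, fell in 3 of the 4 depletions by edgeR without the block. In the PDS5AB line it had 260, 292 and 271 CPM untreated and 153, 168 and 159 CPM treated, a log2 fold change of -0.78 (SE 0.0761, adjusted p = 1.65e-09). In the WAPL line it had 314, 263 and 283 CPM untreated and 210, 192 and 180 CPM treated (-0.56, adjusted p = 8.93e-07), and in the PDS5AB-NIPBL line 292, 245 and 288 CPM untreated and 221, 212 and 234 CPM treated (-0.31, adjusted p = 0.00376, edgeR). The groups were separate in each of these lines. In the WAPL-NIPBL line it had 300, 273 and 294 CPM untreated and 257, 238 and 250 CPM treated, also without overlap. The log2 fold change there was -0.22, with an adjusted p of 0.0714 by edgeR, 0.000162 with the block for replicate number and 0.0395 by DESeq2. The effect in the PDS5AB-NIPBL line was less negative than that in the PDS5AB line by 0.47 (adjusted p = 0.0047, edgeR). The difference between the WAPL-NIPBL and WAPL lines was 0.34 and did not pass the test (adjusted p = 0.0561, edgeR), whereas DESeq2 called it (adjusted p = 0.0314). Rpl22l1, which with its partner Rpl22 has RNA-binding roles outside the ribosome, fell in the PDS5AB line (-0.49, adjusted p = 5.67e-05) and the WAPL line (-0.27, adjusted p = 0.0225, edgeR). The latter call was lost with scaling by total counts (-0.19), with the 2 groups fitted alone (-0.24), without the first untreated (-0.21) and without the second (-0.22) or the third (-0.20) treated library. Before treatment Rpl7l1 was lower than in TIR1 cells in PDS5AB (-0.31), WAPL (-0.24), PDS5AB-NIPBL (-0.30) and WAPL-NIPBL cells (-0.23). The WAPL and WAPL-NIPBL calls were lost without the second (-0.21 and -0.19) or the third (-0.24 and -0.23) untreated TIR1 library, without the second untreated WAPL (-0.18) or WAPL-NIPBL (-0.19) library, and in WAPL without the third untreated WAPL library (-0.23). The WAPL call was also lost with the 2 groups fitted alone and a block for replicate number (-0.25).

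Rpl3l, a paralog typical of heart and skeletal muscle, was barely expressed. It had 1.58, 2.15 and 1.46 CPM in untreated and 0.575, 0.616 and 0.574 CPM in treated WAPL libraries, a log2 fold change of -1.55 (SE 0.301, adjusted p = 0.000165, edgeR) from a mean of 34 counts. In the WAPL-NIPBL line it had 1.56, 2.96 and 2.16 CPM untreated and 1.77, 2.27 and 1.97 CPM treated, which overlap, and the effects of the 2 lines differed by 1.38 (adjusted p = 0.0363). Leaving out 9 of the 12 libraries in turn ended that call (1.19 to 1.45): each of the WAPL libraries except the third untreated, and the first and the third untreated and second and the third treated WAPL-NIPBL libraries. In untreated PDS5AB cells it was already lower than in TIR1 cells (-1.31, adjusted p = 0.00105, edgeR). Rps27l, which responds to p53 in other cells, had log2 fold changes from -0.13 to 0.12 in the 5 treatment effects. None of them was called, except in the PDS5AB-NIPBL line with the block for replicate number (0.12, adjusted p = 0.0159, edgeR). It was lower before treatment in the PDS5AB-NIPBL (-0.21) and the WAPL-NIPBL line (-0.32). The former call was lost with no filter on low counts (-0.19), without the second untreated TIR1 library (-0.15) and without the first (-0.21), second (-0.16) or the third (-0.23) PDS5AB-NIPBL library. That call was also lost with the 2 groups fitted alone and a block for replicate number (-0.20). Rpl36al was counted at 1.50 to 3.39 CPM, shares 24.5% of its exon bases with Gm49383, and was called in none of the 14 comparisons. Rps19bp1 fell in the PDS5AB line (-0.39, adjusted p = 0.00277, edgeR), a call lost with scaling by total counts (-0.24), and was lower in untreated WAPL-NIPBL (-0.50) and WAPL cells (-0.34). The last call was lost without any 1 untreated TIR1 library (-0.36 to -0.32) and without the second (-0.23) or the third (-0.36) WAPL library.

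Among retrocopies, Rps4l had 565, 540 and 493 CPM in untreated TIR1 cells, and none of its transcript matched another gene at 95% identity over 200 bases. It fell in the PDS5AB line (-0.43, adjusted p = 0.00117), from 463, 383 and 359 to 339, 279 and 273 CPM, and was lower in that line before treatment (-0.41, adjusted p = 0.00312, edgeR). Rpl32l had 4.89 to 6.43 CPM in untreated TIR1 and 5.96 to 7.89 CPM in untreated PDS5AB libraries. Treated PDS5AB libraries, which belong to the same set of library numbers, had 4.62, 4.05 and 2.84 CPM, and no library of the higher-numbered set exceeded 4.03 CPM. Treated PDS5AB libraries thus overlapped those of the higher-numbered set. Its log2 difference was -1.94 for auxin in the TIR1 line (adjusted p = 0.000135), and before treatment -1.49 for WAPL, -1.41 for PDS5AB-NIPBL and -1.15 for WAPL-NIPBL (edgeR), all of which cross the sets. The last of these was lost without the second WAPL-NIPBL library (-1.06). Rps27rt fell with auxin in the TIR1 line (-0.88, adjusted p = 0.00326, edgeR), from 4.96, 6.38 and 3.12 to 2.61, 2.06 and 3.15 CPM, with overlap and across the same sets, a call lost without the second untreated library (-0.63).

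**Figure D4:**
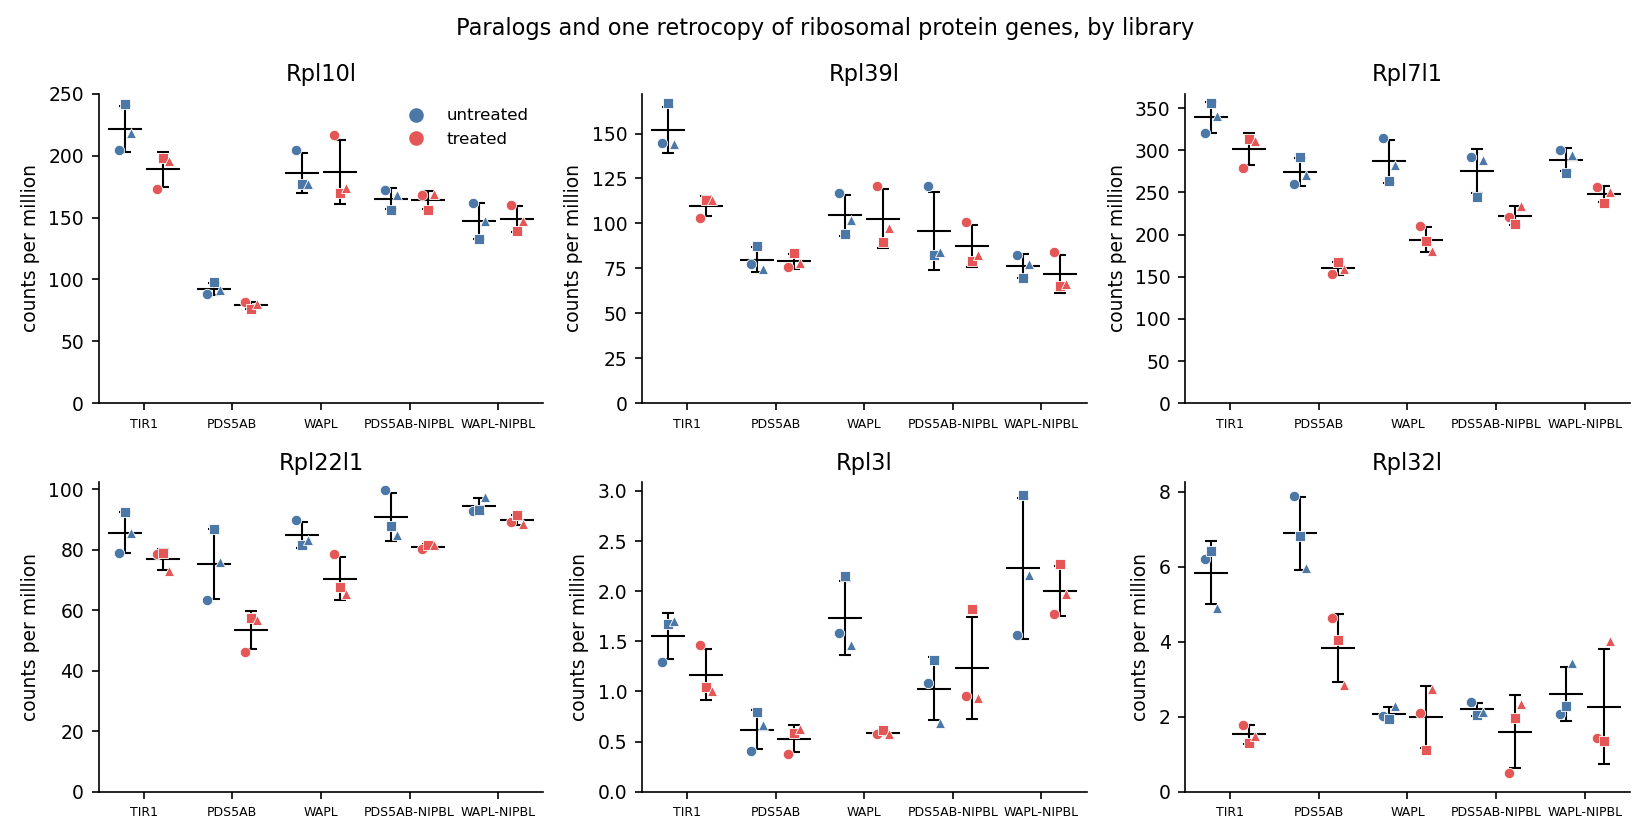
CPM (counts-per-million) in each library (points, with mean and SD of 3 libraries) for 5 paralogs and the retrocopy Rpl32l; vertical scales differ between panels and start at 0. Rpl10l is at most 97.8 CPM in every PDS5AB library, Rpl7l1 is lower in treated than in untreated PDS5AB and WAPL libraries, and Rpl32l is at most 4.03 CPM in the higher-numbered set and at 4.62, 4.05 and 2.84 CPM in treated PDS5AB libraries of the lower-numbered set.

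The members were set beside 3 lists of related genes, which were chosen with earlier results of these data known. Of 29 other translation genes, which encode elongation and initiation factors and further messages with pyrimidine tracts, 23 were called lower in the PDS5AB line, 6 in WAPL, 2 in PDS5AB-NIPBL, 4 in TIR1 and 0 in WAPL-NIPBL cells by edgeR (0 at an unadjusted p under 0.05 as well). These are shares of 79.3%, 20.7%, 6.9% and 13.8% in the first 4 of these lines, beside 20.2%, 15.8%, 8.06% and 9.59% of all genes. In this fit, without a block for replicate number, they lie near those of all genes outside the PDS5AB line. Counts with the block are not given for the 3 lists. Vim was higher in WAPL cells (0.37), a call lost without the second untreated (0.30) or first treated (0.23) library. The median log2 fold change of the translation genes was -0.39 in the PDS5AB line. Npm1, a nucleolar chaperone of ribosome assembly, fell from 2770 ± 99.7 to 1650 ± 113 CPM (SD, n = 3) in the PDS5AB line (-0.75, adjusted p = 6.69e-10), and in the WAPL (-0.40) and PDS5AB-NIPBL lines (-0.29). Snhg8, a snoRNA host gene, fell by 0.82 in the PDS5AB line. Cct4, a subunit of the chaperonin, fell by 0.41 in the WAPL line, Snhg1 by 0.41 in the PDS5AB-NIPBL line, and Eif3k by 0.37 and Eef1d by 0.27 in TIR1 cells. The call of Eef1d was lost without each TIR1 library in turn except the first untreated (-0.28 to -0.22).

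Ribosome assembly genes were called lower in each line. Of 60 tested assembly genes, 53 were called lower in PDS5AB, 43 in WAPL, 26 in PDS5AB-NIPBL, 7 in WAPL-NIPBL and 21 in TIR1 cells, beside 84, 16, 1, 0 and 29 of the 91 ribosomal protein genes. The shares were 88.3%, 71.7%, 43.3% and 11.7% in the 4 degron lines, beside 20.2%, 15.8%, 8.06% and 3.45% of all genes, and 9.59% of all genes were called lower in TIR1 cells. The medians of the assembly genes were -0.48, -0.26, -0.19, -0.12 and -0.13. The difference between the lists was not tested. In the PDS5AB line Nop10, a protein of H/ACA particles that modify ribosomal RNA, fell from 121 ± 10.6 to 68.3 ± 4.96 CPM (-0.83, adjusted p = 1.6e-08), and Gnl3, a nucleolar GTPase of stem cells, from 246, 281 and 287 to 144, 163 and 163 CPM (-0.79, adjusted p = 2.92e-10). In the WAPL line Rrs1, needed for assembly of the 5S particle, fell from 120 ± 4.32 to 72.2 ± 3.18 CPM (-0.73, adjusted p = 5.64e-10), Rrp1b fell by 0.60, and Rrn3, an RNA polymerase I initiation factor, rose by 0.33. In the PDS5AB-NIPBL line Ddx10, a nucleolar helicase, and Polr1b, a subunit of RNA polymerase I, fell by 0.43 each, and in the WAPL-NIPBL line Ddx10 fell by 0.26 and Nolc1 by 0.25. With scaling by total counts both calls were lost (-0.21 and -0.20). The Ddx10 call was also lost without the first (-0.25) or second (-0.22) untreated or the first (-0.26) or the third (-0.18) treated library, and the Nolc1 call without the first (-0.20) or the third (-0.25) untreated or the second (-0.20) or the third (-0.21) treated library. In TIR1 cells Nop10 (-0.52) and Bop1 (-0.40) fell and Rsl24d1 rose (0.20). The call of Rsl24d1 was lost with no filter on low counts (0.22), without the third untreated (0.15) and without the second (0.20) or the third (0.17) treated library.

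Of 26 regulators of ribosomal protein genes and of growth, 13 were called lower and 2 higher in the PDS5AB line (20.2% and 25.8% of all genes). In WAPL cells 9 were lower and 4 higher, beside 3132 and 3385 of all 19868 genes, in PDS5AB-NIPBL cells 4 and 4 (8.06% and 11.4% of all genes), in TIR1 cells 3 and 3 (9.59% and 10.4%), and in WAPL-NIPBL cells 1 and 1 (3.45% and 5.11%). Mycn had 73.5, 69.7 and 73.8 CPM untreated and 22.8, 19.6 and 22.9 CPM treated in the PDS5AB line, a log2 fold change of -1.73 (SE 0.108, adjusted p = 2.06e-13, edgeR), and its groups did not overlap. It also fell in WAPL (-0.89), PDS5AB-NIPBL (-0.90) and WAPL-NIPBL cells (-0.49, adjusted p = 0.00179), and had -0.10 in TIR1 cells (adjusted p = 0.553). Myc fell in the PDS5AB line (-0.73, adjusted p = 0.00596) and with auxin in TIR1 cells (-0.83), and rose in the WAPL (0.69), PDS5AB-NIPBL (0.76) and WAPL-NIPBL lines (0.76, adjusted p = 0.0226, edgeR). Each of these calls of Myc rested on single libraries: they were lost without the first untreated PDS5AB (-0.42), second treated TIR1 (-0.69), second untreated WAPL (0.54) and the third treated PDS5AB-NIPBL library (0.62), and without the second untreated (0.56) or first (0.72) or the third (0.70) treated WAPL-NIPBL library. Ddit4, an inhibitor of mTOR, rose from 101 ± 10.3 to 263 ± 22.6 CPM in the PDS5AB line (1.38, adjusted p = 2.02e-07) and in the WAPL line (0.60). Mdm2, the ubiquitin ligase that ribosomal proteins bind when assembly fails, rose in PDS5AB (0.74), PDS5AB-NIPBL (0.71) and TIR1 cells (0.46), and Trp53 fell in WAPL cells (-0.42), except without the second treated library (-0.33). Eif4ebp1, a translation repressor controlled by mTOR, fell in PDS5AB-NIPBL (-0.34) and TIR1 cells (-0.39). Rps6kb1, an S6 kinase, rose in TIR1 cells (0.25), a call lost without the first (0.24) or second (0.21) untreated or the second treated (0.24) library.

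The proteins of the mitochondrial ribosome are encoded by separate nuclear genes. Of 77 tested, 50 were called lower in the PDS5AB line, 28 in WAPL, 11 in PDS5AB-NIPBL, 2 in WAPL-NIPBL and 22 in TIR1 cells. These are 64.9%, 36.4%, 14.3%, 2.6% and 28.6% of the list, beside 20.2%, 15.8%, 8.06%, 3.45% and 9.59% of all genes, and 1 gene each was called higher in the WAPL and WAPL-NIPBL lines. Their median log2 fold change was -0.28 in the PDS5AB line, beside -0.43 for the cytosolic set, and -0.17 in the WAPL line, beside -0.15. The range in the PDS5AB line was wider, from -0.85 to 0.17. A difference between the mitochondrial and the cytosolic set was not tested.

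**Figure D5:**
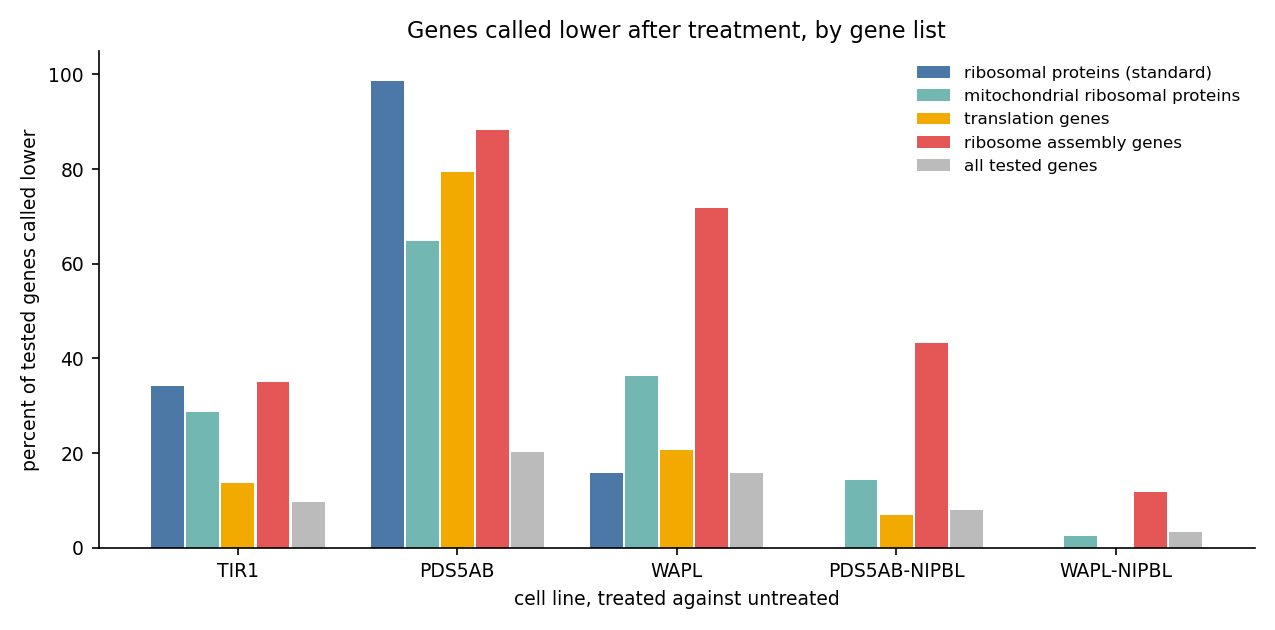
Percent of tested genes called lower after treatment (vertical axis from 0) in each line, for the 76 standard ribosomal proteins, 77 mitochondrial ribosomal proteins, 29 translation genes, 60 ribosome assembly genes and all 19868 tested genes. In the PDS5AB line 98.7% of standard members were called lower against 20.2% of all genes, and in the WAPL line 71.7% of assembly genes were.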

How the data were processed

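RNA sequencing libraries, 30 in all, were analysed from 1 table of raw counts per gene. Per the file headers, the authors counted fragments with featureCounts 2.0.1 in paired mode, with no option for strand, multi-mapping or overlapping genes. The submitters' processing notes name cutadapt, STAR 2.7.7a and deepTools. The labels list the molecule as genomic, while their protocol describes messenger RNA. Without strand, reads of a gene and an antisense partner cannot be told apart. Gene symbols came from a supplied table (55154 of 55421 identifiers matched). All value columns were mapped to samples.

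Counts were tested with edgeR 4.0.16 (R 4.3.3; TMM, low-count filter, quasi-likelihood test, 30 libraries in 1 model of 10 groups). Benjamini-Hochberg adjustment ran over 19868 genes, with a threshold of 0.05. The common biological coefficient of variation was 9.15%, with 20 residual degrees of freedom. Library totals were 19632704 to 45539021 fragments and TMM factors 0.95 to 1.13. Shares were compared by exact permutation tests (scipy 1.17.1), and near copies were searched with BLAST 2.17.0. The scripts were tested on simulated data. Alternatives were RLE factors, total counts, no filter, compared groups alone, a block for replicate number, DESeq2 1.42.0, standard members only, and leaving out each library.

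Libraries of the same replicate number deviated together within the 4 degron lines (correlations of deviations 0.11 to 0.33), but not in TIR1 (-0.01 to 0.06). The labels do not say that a replicate number marks a shared batch.

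Named in full were the called members, with a mean of at least 50 counts, of largest change in each comparison (4 each way for treatments, 3 for untreated lines, 2 for differences), the stalk genes, listed paralogs, Rps19bp1 and the listed genes outside the rule, of which 1 is not reported here. From each related list the 2 highest and 2 lowest called genes were named. The other members given by value, and Rpl34 and Rps21 beyond their calls, were chosen after their values were seen. The members and lists were chosen with earlier results of these data known.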

Additional observations from a re-analysis of the deposited data

Results flagged for a closer look

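Effects of treatment that differed between lines by the test of the difference itself were these. Between the PDS5AB and TIR1 lines 20 ribosomal protein genes differed, with Rpl36a at -0.63 and Rpl7l1 at -0.60 on the log2 scale. Between the WAPL and TIR1 lines 4 differed, among them Rpl7l1 (-0.39), Rpl32l (1.88) and Rps21 (0.33). Both of these comparisons involve TIR1 groups from different sets of library numbers. Between the PDS5AB-NIPBL and PDS5AB lines 42 differed, with Rpl36a at 0.67 and Rpl38 at 0.59. Between the WAPL-NIPBL and WAPL lines 1 differed, the low-level paralog Rpl3l. Between the PDS5AB and WAPL lines 21 differed, with Rps20 at -0.64 and Rpl36a at -0.62.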

How the results depend on the processing

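Many counts of called ribosomal protein genes moved by more than 1.5 times under the alternatives, and except for fits with fewer samples or members the cause was not tested. For scaling by total counts, no filter and fits without 1 library, the shares of all genes called are not given. Scaling by total counts gave 7 for the WAPL effect, 9 for untreated PDS5AB cells, 10 for PDS5AB against TIR1 (2 higher, 8 lower), 8 for WAPL against TIR1 (7 higher, 1 lower) and 18 for PDS5AB-NIPBL against PDS5AB, and turned the WAPL-NIPBL median to 0.03. No filter on low counts gave 25 for WAPL, 45 for PDS5AB against TIR1, 7 for WAPL against TIR1 and 36 for PDS5AB against WAPL. The compared groups alone gave 51 for TIR1, 5 for WAPL, 1 for WAPL-NIPBL, 2 for WAPL-NIPBL against WAPL and 6 for PDS5AB against WAPL. DESeq2 gave 1 for WAPL-NIPBL and 2 for WAPL-NIPBL against WAPL. Standard members alone, without the paralogs, Rps19bp1 and the retrocopies (the last a class set apart after seeing the data), gave 0 for PDS5AB-NIPBL, 9 for untreated PDS5AB cells, 1 for WAPL against TIR1 and 0 for WAPL-NIPBL against WAPL.

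With the replicate block, the counts were 66 for WAPL, 26 for PDS5AB-NIPBL, 2 for WAPL-NIPBL, 84 for PDS5AB-NIPBL against PDS5AB, 21 for WAPL-NIPBL against WAPL, 76 for PDS5AB against WAPL (1 higher, Rpl3l), 63 for PDS5AB against TIR1 (3 higher) and 23 for WAPL against TIR1 (15 higher, 8 lower, beside 3180 and 3854 of all 19868 genes). In TIR1 (79, of which Rpl23a was higher, beside 17.2% of all genes lower and 18.4% higher) and untreated PDS5AB cells (53, beside 22.5% of all genes lower), samples share only a number. The block fit for untreated PDS5AB cells also held the compared groups alone, with 17496 genes tested. In TIR1 not every library correlated best with its own number, and in untreated PDS5AB against TIR1 cells each did.

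Leaving out 1 library gave 4 to 32 for TIR1, 6 to 54 for WAPL, 7 to 25 for untreated PDS5AB, 6 to 33 for untreated WAPL, 33 to 58 for untreated PDS5AB-NIPBL and 16 to 45 for untreated WAPL-NIPBL cells. It gave 13 to 32 for PDS5AB against TIR1, 2 to 7 for WAPL against TIR1, 14 to 55 for PDS5AB-NIPBL against PDS5AB, 0 to 2 for WAPL-NIPBL against WAPL and 5 to 40 for PDS5AB against WAPL. The PDS5AB effect stayed at 73 to 85. Of 1626 alternative values of 126 single-gene results, 1443 kept their side of the threshold, 183 lost the call and 0 reversed.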
